A study of Homo sapiens with 2 samples.

Results

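The genes described here are 9 interferon-induced genes of the IFI and IFITM groups with BST2: IFI6, IFI27, IFI35, IFI44, IFI44L, IFITM1, IFITM2, IFITM3 and BST2. They were taken by symbol from the 36601 genes of the deposited matrix, and each symbol matched 1 gene. The cells were OVCAR5, an ovarian carcinoma line that carried a reporter of interferon-gamma sensing and was CFP positive, per the labels. A single pool held 18 conditions: no stimulation, or interferon-gamma at 1, 10 or 100 ng/ml, each for 2, 6, 12 or 24 h, and a frozen counterpart of the unstimulated and of the 100 ng/ml cells at 24 h. RNA was counted per cell in droplets, together with 8 antibody hashtags, and most cells carried hashtags in pairs. Which hashtags stand for which dose, duration or freezing is not stated in the labels or files read here. The 18 pairs are therefore called by their hashtag numbers, as in pair 7+8, and none is called stimulated, unstimulated or frozen.

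Of 7804 barcodes, 7201 passed the cell filter (500 or more genes, with mitochondrial UMIs making up 20% or less), and 6114 of these carried a readable pair. A UMI is a tag that marks 1 captured RNA molecule. The pairs held 166 to 493 cells, with a median depth of 27824.5 to 32945 UMIs per cell and a median mitochondrial share of 10.5 to 12.4%. Every pair is 1 sample without replicates, so intervals below are exact 95% intervals that cover counting error only, and no test between pairs was made. The carcinoma keratins KRT8 and KRT18 had a UMI in 99.4% and 99.9% of cells. KRT7 had one in 94.5%, KRT19 in 82.3%, EPCAM in 69.6% and PAX8 in only 10.5%. Of 6 epithelial markers none spanned 4-fold between pairs, KRT7 coming closest at 3.89-fold with 691 CPM in pair 2+4 against 177 CPM in pair 2+5. Among T cell markers, CD3E and CD2 had 0 UMIs, PTPRC 2 and CD3D 9. Among myeloid markers, TYROBP had 0 UMIs and LYZ 105, while CD68 was detected in 54.5% of cells and CD14 in 13.4%. CD14 had 8.03 CPM in pair 1+2 against 1.79 CPM in pair 3+5, and CD68 37.6 CPM in pair 2+5 against 21.8 CPM in pair 2+6. Among fibroblast markers, COL1A2 had 0 UMIs, DCN 1, LUM 2 and COL1A1 165, and among endothelial markers CDH5 had 1, VWF 4 and PECAM1 61. The part of these transcripts in the results below was not tested.

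Interferon-gamma binds its receptor and signals through the kinases JAK1 and JAK2, and many of its target genes carry a gamma-activated sequence (GAS) before their start. Type I and type III interferons lead to a complex with STAT2 and IRF9, which binds the interferon-stimulated response element (ISRE). IFI and IFITM genes are known mainly as targets of the ISRE route, and many of them also respond to interferon-gamma. Their proteins act at membranes and in the cytoplasm: the IFITM proteins and BST2 hinder entry and release of enveloped viruses, and the IFI proteins are a mixed set named for their induction.

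The stretches before the start sites of 5 of the genes are shown because they differ in the 2 kinds of element. They are the 250 bases before the annotated start from RefSeq on GRCh38.p14, at chr1:27672193-27672442 (minus strand), chr1:78620198-78620447 (plus strand), chr11:313790-314039 (plus strand), chr11:320861-321110 (minus strand) and chr17:43006534-43006783 (plus strand). Each is written 5′ to 3′ on the strand of the gene. Capitals mark matches on either strand to the ISRE core, searched as GAAA, any 2 bases and GAAA, or to the GAS core TTCNNNGAA.

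IFI6: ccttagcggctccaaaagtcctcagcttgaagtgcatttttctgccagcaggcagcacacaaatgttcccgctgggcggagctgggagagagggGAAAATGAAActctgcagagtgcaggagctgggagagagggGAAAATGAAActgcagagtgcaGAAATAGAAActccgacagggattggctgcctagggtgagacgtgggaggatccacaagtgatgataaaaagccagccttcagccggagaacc
IFI44L: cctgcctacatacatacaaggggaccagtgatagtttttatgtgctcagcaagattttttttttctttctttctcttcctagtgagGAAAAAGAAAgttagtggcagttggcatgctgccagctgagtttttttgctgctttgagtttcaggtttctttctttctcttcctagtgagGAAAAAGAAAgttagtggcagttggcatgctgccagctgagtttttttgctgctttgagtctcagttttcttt
IFITM1: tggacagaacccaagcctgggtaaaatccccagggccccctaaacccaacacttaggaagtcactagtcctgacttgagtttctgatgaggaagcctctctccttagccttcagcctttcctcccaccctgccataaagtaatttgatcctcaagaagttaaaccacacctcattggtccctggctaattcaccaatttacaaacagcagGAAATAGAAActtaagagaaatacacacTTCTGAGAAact
IFITM3: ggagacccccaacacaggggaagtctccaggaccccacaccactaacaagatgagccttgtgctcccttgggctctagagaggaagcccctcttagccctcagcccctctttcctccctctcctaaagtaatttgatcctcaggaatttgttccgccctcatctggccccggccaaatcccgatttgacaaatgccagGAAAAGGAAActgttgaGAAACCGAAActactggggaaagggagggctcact
IFI35: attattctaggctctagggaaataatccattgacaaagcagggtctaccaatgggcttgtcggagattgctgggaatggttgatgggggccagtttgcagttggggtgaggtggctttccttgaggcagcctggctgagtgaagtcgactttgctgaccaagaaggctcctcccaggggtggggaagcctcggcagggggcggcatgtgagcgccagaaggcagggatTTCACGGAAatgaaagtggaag

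The table of start sites held 8 of the 9 genes in 10 windows, 2 each for IFI27 and IFI44, and IFITM2 was not matched. An ISRE core lay in the windows of 7 genes and a GAS core in those of 4, while 3.02% and 6.57% of all 35116 windows of 250 bases held them. IFI6 had 3 ISRE cores, 156 to 84 bases before its start. IFI44L had 2, ending 155 and 64 bases before its start, and IFITM3 had 2 between 52 and 26 bases before its start. IFITM1 had 1 ISRE core and 1 GAS core, and IFI35 had 1 GAS core 22 to 14 bases before its start and no ISRE core by these letters. In IFI27 a GAS core overlapped both of 2 ISRE cores. BST2 had 2 ISRE cores that overlapped each other, 1 GAS core that overlapped the first of them and another 58 to 50 bases before its start. A match is a description of the letters and not a bound site.

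**Figure D1:**
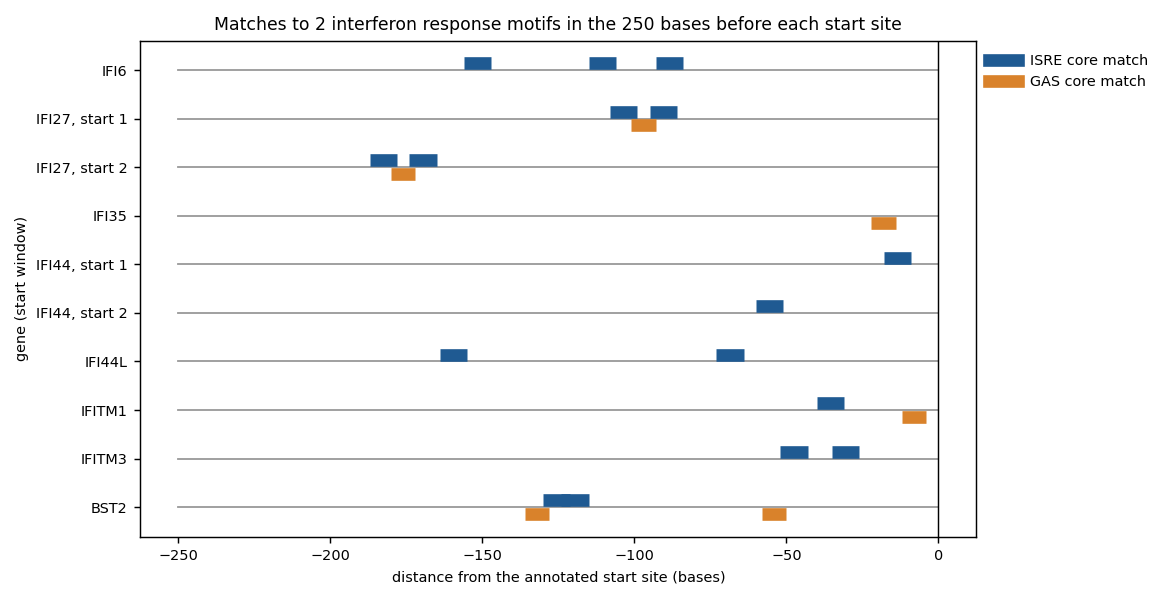
Positions of matches to the ISRE core (blue) and the GAS core (orange) in the 250 bases before each annotated start site, in bases from the start (0), for the 8 genes with a window. ISRE cores are present in every gene drawn but IFI35, which has 1 GAS core near its start.

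All 9 genes were measured in every pair, and their levels differed between pairs by amounts that ran from less than 2-fold to 26.2-fold. The span is the level in the highest pair divided by that in the lowest, on the CPM scale (UMIs per 1000000 gene UMIs of the pair). IFI44L had the widest span of the 9 at 26.2-fold (16.4 to 44.6), followed by IFITM1 at 14.5-fold (9.17 to 24.2), IFI35 at 8.65-fold (7.94 to 9.43) and IFI6 at 6.56-fold (5.77 to 7.48). IFI27 spanned 3.61-fold, IFITM3 3.58-fold, BST2 3.16-fold, IFI44 3.03-fold and IFITM2 1.83-fold. Thus 4 of the 9 spanned at least 4-fold, where 3.45% of the 7566 genes with at least 2000 UMIs did so. All 9 had at least 2000 UMIs. Their median span was 3.61-fold, and that of the 7566 genes was 1.53-fold.

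**Figure D2:**
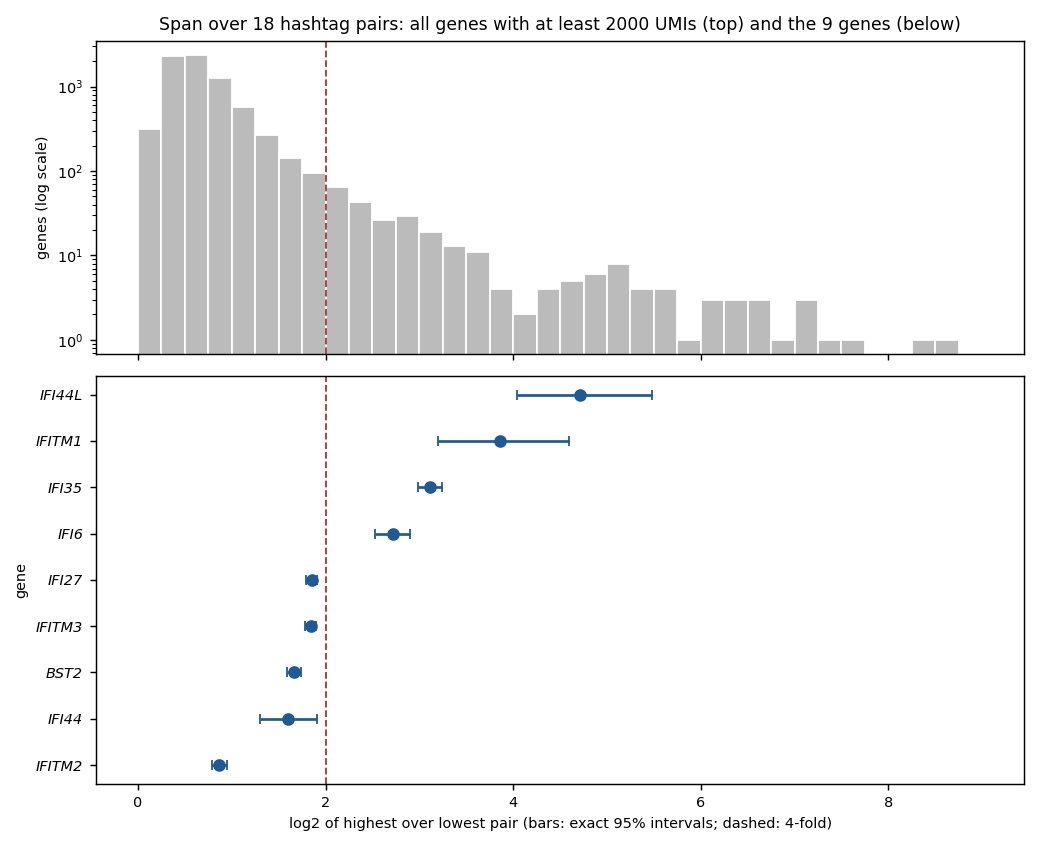
Top, number of genes (log scale) by log2 span over the 18 pairs for the 7566 genes with at least 2000 UMIs. Bottom, the 9 genes with exact 95% intervals of counting error. The dashed line marks 4-fold, which IFI44L, IFITM1, IFI35 and IFI6 pass.

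The order of the pairs was nearly shared. Pairs 7+8, 6+8, 5+8 and 2+5 were the 4 highest for 8 of the 9 genes, IFI44 being the exception. Pairs 1+2, 2+4, 1+5, 3+5 and 5+7 were the 5 lowest for 7 genes. In IFI27 pair 1+4 stood among the lowest in place of 1+2, and in IFI44 pair 1+3 in place of 3+5. Of the 17 steps between neighbours in a gene's order, the interval of the ratio held 1 in 6 for IFITM3, 7 for IFI35 and 8 for IFI27, but in 15 for IFITM1 and 16 for IFI44, which had 2897 and 5279 UMIs in all.

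IFI6 and IFI27 are small hydrophobic proteins of 1 family, and IFI6 is known as an inhibitor of apoptosis. IFI6 stood at 174, 167, 161 and 147 CPM in pairs 7+8, 6+8, 5+8 and 2+5, with 87.3 CPM in the next pair, 5+6. It had 26.6 CPM in pair 5+7, 30.3 in pair 1+5 and 35.4 in pair 3+5. No counting interval of the 4 highest pairs reached the next pair. The 4 were picked by these same levels, so this gap is no finding. IFI27 had 1095, 1059, 1037 and 1021 CPM in pairs 7+8, 5+8, 6+8 and 2+5, against 303 CPM in pair 5+7 and 379.6 CPM in pair 1+5. Pair 1+2, among the lowest for most of the genes, still held 601 CPM of IFI27, or 54.9% of its highest level.

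IFI35 is a leucine zipper protein that associates with NMI. It stood at 639.8 CPM (625 to 655) in pair 7+8, against 74.0 CPM (68.1 to 80.3) in pair 1+5. Between these ends pairs 6+8, 5+8 and 2+5 had 592, 541 and 516 CPM. The next 3 sets of pairs were picked after the values were seen, so their lack of overlap is no finding. Pairs 3+7, 4+7 and 5+6 had 424, 453 and 445 CPM, and pairs 2+6, 2+8 and 3+4 had 281, 287 and 289 CPM. Pairs 1+3, 1+4 and 1+6 had 168, 159.6 and 169 CPM. Pair 1+2 followed with 137 CPM.

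IFI44 and IFI44L are related cytoplasmic proteins whose genes lie next to each other, 3650 bases apart on the plus strand of chromosome 1 (IFI44L at chr1:78619922-78646145 and IFI44 at chr1:78649796-78664078, GENCODE 29, GRCh38). IFI44L had 48.5 CPM (524 UMIs) in pair 7+8, against 1.85 CPM (18 UMIs) in pair 2+4, 2.18 CPM in pair 1+5, 2.36 CPM in pair 5+7 and 2.41 CPM in pair 3+5. IFI44 had 38.6, 38.6, 37.9 and 36.0 CPM in pairs 5+8, 5+6, 6+8 and 7+8, against 12.8 CPM (124 UMIs) in pair 2+4. In pair 1+2 IFI44 stood at 49.1% and IFI44L at 9.24% of the highest level. The neighbours thus differed in span, 26.2-fold against 3.03-fold, with intervals that do not meet.

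The IFITM genes encode short membrane proteins, IFITM1 being known mainly from the cell surface and IFITM2 and IFITM3 from endosomes. They lie together on chromosome 11 in GENCODE 29 (GRCh38), IFITM2 at chr11:307631-315272 and IFITM1 at chr11:313506-315272 on the plus strand, and IFITM3 at chr11:319669-327537 on the minus strand. IFITM3 had 1121 CPM (1101 to 1141) in pair 7+8, against 313 CPM (301 to 326) in pair 1+5. IFITM1 had 35.2 CPM in pair 6+8 and 34.5 CPM in pair 7+8, against 2.43 CPM (19 UMIs) in pair 1+5 and 2.84 CPM in pair 3+5. IFITM2 had 259.99 CPM in pair 7+8, against 142 CPM in pair 3+5, 154 CPM in pair 5+7 and 164 CPM in pair 1+5, and its other 14 pairs lay between 196 and 256 CPM.

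The IFITM values are uncertain in how reads were shared out. Read 2 had 54 cycles, per the labels. Of all 54-base windows in the last 500 bases of the coding transcripts in GENCODE 29, 69.5% for IFITM1, 41.1% for IFITM2 and 17.5% for IFITM3 also occur in a transcript of another gene, among them the other IFITM genes and the pseudogene IFITM9P. The annotated IFITM2 gene covers the whole of IFITM1 (1767 bases). For IFI6, IFI27, IFI35, IFI44, IFI44L and BST2 the share was 0%. The labels and files read here do not say how such reads were counted. Antisense genes overlap IFI6, IFITM2 and IFITM3, and long noncoding RNA genes also overlap IFITM3 on its own strand.

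BST2, or tetherin, holds budding virus particles at the cell surface. It stood at 395, 369.9, 361 and 349 CPM in pairs 7+8, 6+8, 2+5 and 5+8, with 251 CPM in the next pair, 5+6. Its lowest pairs were close to each other, with 125 CPM in pairs 3+5 and 5+7, 129 CPM in pair 1+5 and 131 CPM in pair 2+4. Pairs 1+2, 1+3, 1+4 and 1+6 had 161, 164, 167 and 167 CPM.

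**Figure D3:**
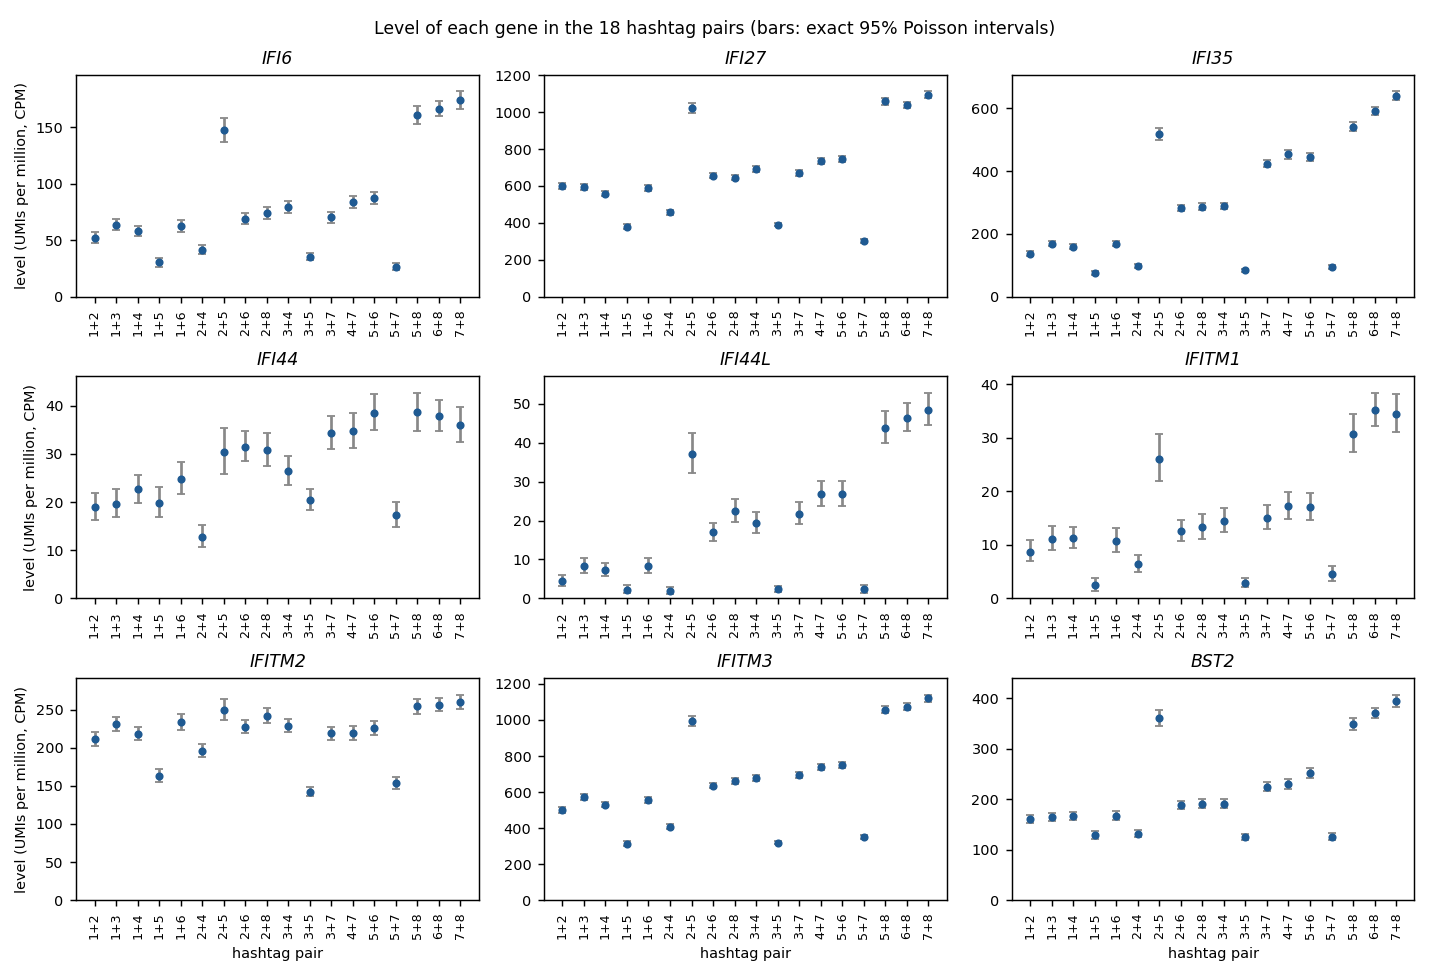
Level of each gene in CPM (linear axis from 0) in the 18 hashtag pairs, with exact 95% Poisson intervals. Pairs 7+8, 6+8, 5+8 and 2+5 are the highest in every panel but that of IFI44, and IFITM2 shows the smallest relative differences of the 9.

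The ratio between 2 given pairs differed from gene to gene, shown here in 4 pairs that were picked after the values were seen. In pair 3+4 over pair 1+6, IFI44L was 2.33-fold higher (1.78 to 3.07) and IFI35 1.71-fold higher (1.61 to 1.82), while IFI6 was 1.27-fold and BST2 1.14-fold higher, and the interval for IFI44 (0.891 to 1.27) and for IFITM2 (0.925 to 1.04) held 1. In pair 4+7 over pair 3+4, IFI35 was 1.57-fold (1.4997 to 1.64), IFI44L 1.39-fold (1.16 to 1.67), IFI44 1.31-fold (1.12 to 1.54) and BST2 1.20-fold higher (1.13 to 1.27), whereas IFI6 gave a ratio of 1.05 (0.959 to 1.16). In pair 7+8 over pair 4+7, IFI6 was 2.08-fold (1.92 to 2.26), IFITM1 2.00-fold (1.67 to 2.41), IFI44L 1.80-fold and BST2 1.72-fold higher, IFI35 1.41-fold (1.36 to 1.47), and IFI44 gave 1.04 (0.897 to 1.20). Between pairs 4+7 and 3+4 the IFI35 interval lay above that of IFI6, and between pairs 7+8 and 4+7 it lay below. The pairs have no known order and were picked by their values, so this lack of overlap is no finding. The IFI44 interval between pairs 7+8 and 4+7 held 1.

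IRF1, an early activator of interferon response genes, was lowest in the same pairs as most of the 9 genes but ran in another order above them. Pairs 2+4, 1+5, 1+2, 3+5 and 5+7 had 43.7 to 70.8 CPM of IRF1, and the next pair, 5+8, had 808 CPM. The pairs set side by side here were also picked after the values were seen. IRF1 was highest in pair 1+6 at 1357 CPM, against 57.9 CPM in pair 1+2, a ratio of 23.4 (21.5 to 25.6). The 9 genes differed less there: IFI44L had a ratio of 1.86 (1.26 to 2.77), IFI44 1.31, IFI35 1.23, IFITM1 1.23 (0.908 to 1.67), IFI6 1.19, IFITM3 1.11, IFITM2 1.11, BST2 1.04 (0.968 to 1.12) and IFI27 0.978 (0.942 to 1.02). These ratios depend on pair 1+2. Among pairs 1+2, 2+4, 1+5, 3+5 and 5+7 it held the most of every gene of the 9 but IFI44. IFI27 had 588 CPM in pair 1+6, 601 CPM in pair 1+2 and 379.6 CPM in pair 1+5. IFI35 had 169, 137 and 74.0 CPM there. In pair 7+8 over pair 1+6 the order turned, with IRF1 at 0.770 and with 5.83 for IFI44L, 3.79 for IFI35, 3.21 for IFITM1, 2.80 for IFI6, 2.36 for BST2, 2.02 for IFITM3, 1.86 for IFI27, 1.45 for IFI44 and 1.11 for IFITM2. In pair 2+5 over pair 1+5 IRF1 and all 9 genes were higher, with ratios of 16.7 (15.1 to 18.5) for IRF1, 17.0 for IFI44L, 10.7 for IFITM1, 6.98 for IFI35, 4.86 for IFI6, 3.18 for IFITM3, 2.80 for BST2, 2.69 for IFI27, 1.53 for IFI44 and 1.53 for IFITM2.

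**Figure D4:**
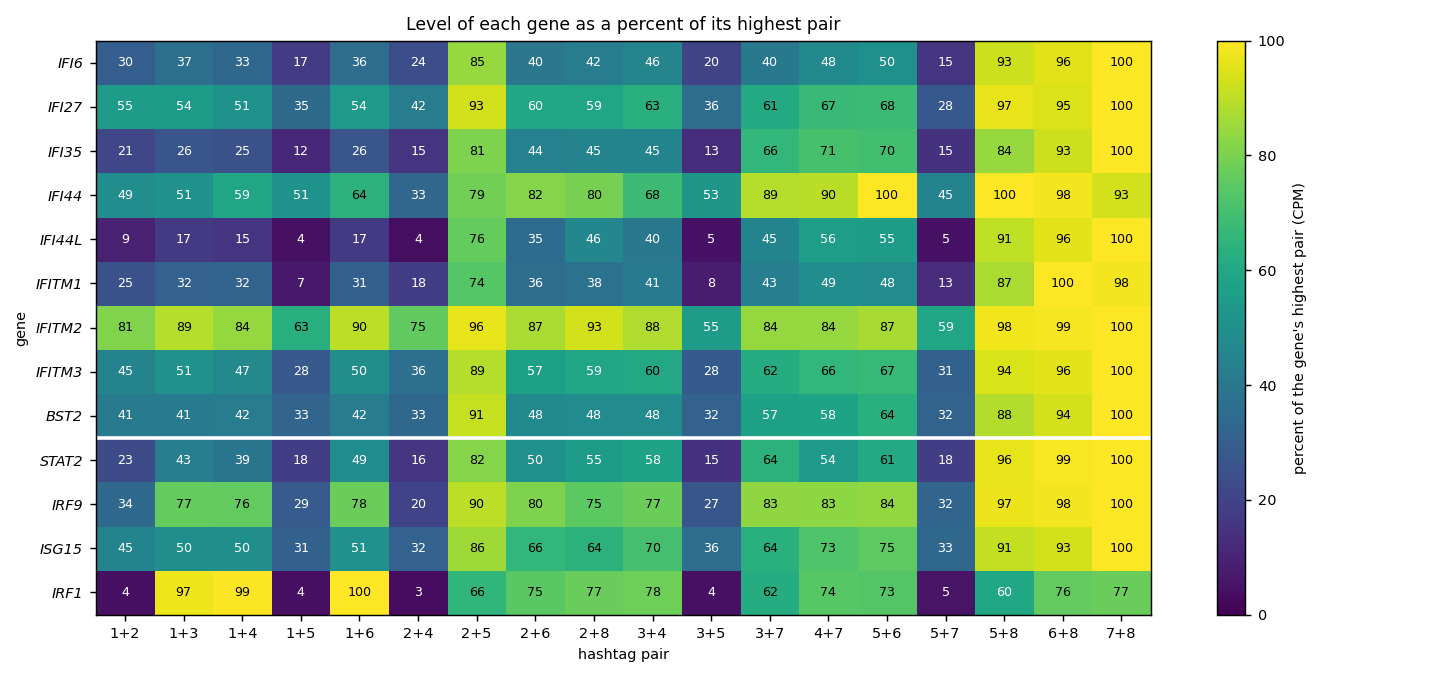
Level of each gene as a percent of its own highest pair, for the 9 genes (above the white line) and for STAT2, IRF9, ISG15 and IRF1 (below it), by hashtag pair. Pairs 1+3, 1+4 and 1+6 are the highest for IRF1 and low to middling for most of the 9 genes.

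Over the 18 pairs the 9 genes moved together as ranks. Spearman's rho between 2 of them had a median of 0.966 over the 36 combinations, was highest at 0.996 for IFI35 with IFITM3 and lowest at 0.666 for IFI44 with IFITM2. The pairs share 1 library, their cells were not thinned here, and the values are descriptions. With STAT2 the rho lay between 0.860 (IFITM2) and 0.973 (BST2), and with IRF9 between 0.808 (IFITM2) and 0.948 (IFI35, IFITM3 and BST2). With IRF1 it lay between 0.261 (IFI27) and 0.573 (IFITM2), while Pearson's r of the log2 levels with IRF1 lay between 0.629 (BST2) and 0.804 (IFITM2). JAK1, the kinase shared by interferon receptors, had a rho between -0.032 and 0.346 with the 9.

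By Pearson's r of log2(CPM + 1) over the 18 pairs, the most alike other gene with at least 2000 UMIs was PSMB8 for IFI35 (r = 0.997), ISG15 for IFI44L (0.991), B2M for BST2 (0.991), GSTK1 for IFITM3 (0.988), LY6E for IFI6 (0.983), ERAP1 for IFITM1 (0.983), TYMP for IFI27 (0.968), C4orf3 for IFITM2 (0.960) and SLFN5 for IFI44 (0.953). The next most alike were PSMB9 for IFI35, SLC15A3 for IFI44L, HLA-C for BST2, ERAP1 for IFITM3, LGALS3BP for IFI6 and IFI27, GSTK1 for IFITM1, SEC14L1 for IFITM2 and MOV10 for IFI44. Likeness in r did not mean a like span: PSMB9 spanned 24.5-fold beside 8.65-fold for IFI35, and ISG15 3.22-fold beside 26.2-fold for IFI44L.

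Related genes and pathway genes were read the same way, among those with at least 100 UMIs, where 14.5% of 13921 genes spanned 4-fold. Of the family relatives, IFI27L1 and IFI27L2, relatives of IFI27, spanned 1.65-fold and 1.74-fold. IFI27L2 was at 129 CPM in pair 1+3, against 73.8 CPM in pair 2+5, so that its low end lay in one of the high pairs of IFI27. IFITM10 spanned 3.87-fold (2.19 to 7.24) with 5.73 CPM in pair 1+2 against 1.48 CPM in pair 7+8, the pair where IFITM2 and IFITM3 were highest. IFITM5 had 0 UMIs. IFI16, a DNA sensor that shares the name prefix, spanned 4.77-fold and was highest in pair 2+5. IFI30 spanned 6.42-fold with its highest level in pair 6+8. Thus the 2 of 5 measured genes that spanned 4-fold were IFI16 and IFI30, which share the name prefix. IFI27L1, IFI27L2 and IFITM10 did not span 4-fold.

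In the antiviral list, which holds none of the 9, 17 of 24 spanned 4-fold with a median of 7.62-fold. ISG15, a ubiquitin-like modifier, spanned 3.22-fold, MX1, a dynamin-like GTPase, 11.9-fold, and IFIT3, an RNA-binding antiviral protein, 11.9-fold. In the list of early interferon-gamma targets 14 of 14 did so, with a median of 63.7-fold. In the signalling list 4 of 10 did so, among them JAK2 by 7.08-fold and IRF9 by 4.95-fold, while JAK1 spanned 1.14-fold.

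Across cells, IFI44L and IFITM1 were detected in few cells of their lowest pairs. With every cell thinned to 10000 UMIs, IFI44L had a UMI in 38.3% of cells (33.1 to 43.6%) in pair 7+8 and in 0.952% (0.197 to 2.76%) in pair 2+4. Unthinned the shares were 66.3% and 5.63%. IFITM1 had a UMI in 33.6% of cells in pair 6+8 and 3.36% in pair 1+5 (59.4% and 6.996% unthinned). IFI6 had a UMI in 76.5% of thinned cells in pair 6+8 and 16.9% in pair 5+7 (95.7% and 43.1% unthinned). IFI35 reached 100% in pair 2+5 and 50.4% in pair 3+5 (98.8% and 83.4% unthinned, over all cells of the pair). IFITM3 was in 91.3% or more of the thinned cells of every pair. Thinning kept 5956 of the 6114 cells and left out 5 to 19 per pair.

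Such shares count detection and do not count expressing cells. Free RNA in the droplets was not subtracted, and the pool held no cell type that should lack these genes. In the 361 barcodes with under 500 genes, IFI44L had 1 UMI and IFITM1 had 0, while IFI27 and IFITM3 had 99 each. These barcodes held 129298 non-mitochondrial UMIs in all. Scaled to such UMIs, IFI27 and IFITM3 stood at 766 CPM each, against 760 and 744 CPM in cells with a pair. The intervals for IFI44L (0.196 to 43.1 CPM) and IFITM1 (0 to 28.5 CPM) held their levels in cells with a pair, 21.8 and 17.2 CPM. BST2 was lower, at 147 CPM (88.5 to 229) against 244 CPM. The raw counts thus say little about free RNA, whose part was not tested.

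IFI27 varied more between cells of the same pair than IFITM3, the one gene of the 9 with like means. The Fano factor (variance over mean of thinned UMIs, near 1 where only sampling scatters the counts) had a median over pairs of 4.66 for IFI27 (3.33 to 5.80), 2.25 for IFITM3 (1.63 to 3.08), 1.54 for IFI6, 1.48 for IFI35, 1.46 for BST2, 1.40 for IFITM2, 1.29 for IFI44, 1.16 for IFI44L and 1.06 for IFITM1. The factor can grow with the mean, which lay between 2.94 and 11.2 thinned UMIs per cell for IFI27 and between 3.25 and 11.7 for IFITM3, but between 0.227 and 1.79 for IFI6 and between 0.130 and 0.368 for IFI44. Its excess over 1 divided by the mean had a median over pairs of 0.929 for IFI44, 0.660 for IFI44L, 0.639 for IFI6, 0.537 for IFI27, 0.233 for IFITM3, 0.220 for IFITM1, 0.182 for BST2, 0.176 for IFITM2 and 0.143 for IFI35, so that IFI27 did not lead on that scale. The mean of IFI27 was above that of IFITM3 in 10 of 18 pairs, yet the Fano factor of IFI27 was the higher in all 18. In pair 5+7 a UMI of IFI27 was missing in 20.9% of thinned cells and one of IFITM3 in 7.06%, at means of 2.94 and 3.55 UMIs. In pair 6+8 the cell with most IFI27 held 67 thinned UMIs, at a mean of 10.7. IFI44L and IFITM1 had few UMIs per cell, which limits what this factor can show for them.

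Of the 9 genes, IFI44 had the largest median share of its UMIs in the cells with most antiviral RNA. In each pair the 5% of cells with the most thinned UMIs of the 24 antiviral genes (8 to 24 cells) were taken, none of the 9 genes being used. They held a median over pairs of 19.3% of the IFI44 UMIs (10.9 to 44.9%), 11.8% of IFI6, 8.88% of IFI44L, 7.78% of IFI27, 7.07% of IFITM3, 6.47% of BST2, 5.58% of IFI35, 5.56% of IFITM1 and 4.48% of IFITM2. IFI44 was above IFI6 and above IFI35 in all 18 pairs. IFI44L was above IFI6 in 10 of the 18 pairs and above IFI44 in 3, so the order of IFI6 and IFI44L by the median does not hold pair by pair. In pair 1+2, where IFI44 reached the 44.9%, these were 16 cells and 69 thinned IFI44 UMIs stood in the whole pair. IFI44L reached 50% in pair 3+5, on 14 thinned UMIs. An even spread over cells would give about 5%, and the share for genes at large is not given here. Over all cells of a pair, IFI44 did not lead: its median rho with the antiviral list total was 0.230, against 0.384 for IFI27.

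Within pairs the rho between the 9 genes over cells was low, on sparse counts. The median rho over pairs ran from 0.0182 (IFI44 with IFITM1) to 0.313 (IFI27 with IFITM3), and its median over the 36 combinations was 0.103. It exceeded 0.2 in 7 combinations, with 0.294 for IFI6 with IFI27, 0.263 for IFI27 with BST2 and 0.258 for IFITM2 with IFITM3. The last 2 genes share read sequence, as given above. In 17 combinations the rho was positive in all 18 pairs, and in 19 it was below 0 in at least 1 pair. The counts are sparse, and a low rho is no finding. With the antiviral list total the median rho was 0.384 for IFI27, 0.327 for IFITM3, 0.313 for IFI6, 0.230 for IFI44 and 0.176 for IFI35. All 9 genes had a negative median rho with a cell's depth before thinning, from -0.220 (IFITM3) to -0.0271 (IFI44), and the part of depth in these correlations was not tested.

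**Figure D5:**
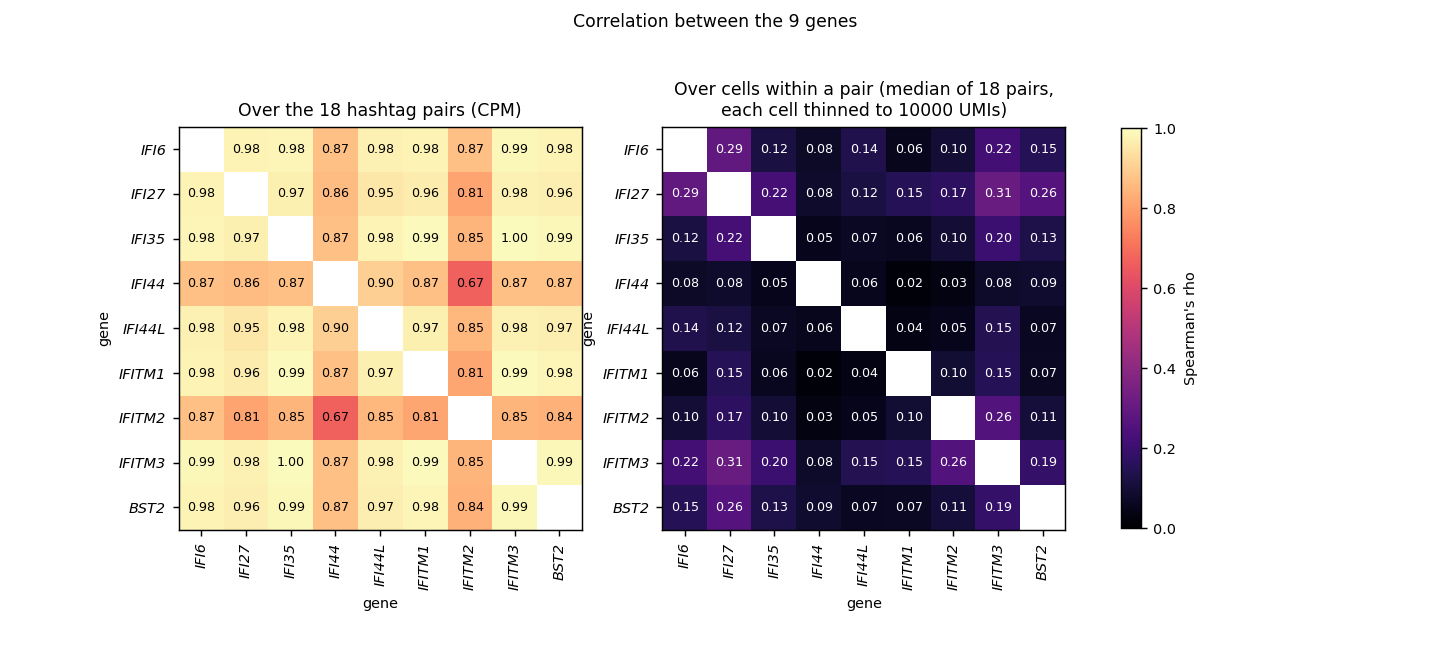
Spearman's rho between the 9 genes over the 18 hashtag pairs (left) and over cells within a pair (right, median of the 18 pairs with each cell thinned to 10000 UMIs). Values are 0.666 or more on the left and 0.313 or less on the right. Counts per cell are sparse, so left and right values are not directly comparable.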

How the data were processed

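Per the labels, 1 pool of OVCAR5 cells gave 2 libraries, of transcripts and of hashtags. The authors deposited whole-number UMI counts without normalisation. Per the file headers the matrix comes from Cell Ranger 5.0.1. The submitters' processing notes list version 2.1.1 of Cell Ranger, and GRCh38, and the versions could not be reconciled.

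A pair was read as the 2 most abundant of 8 hashtags, where the second reached 5 times the sum of the third and 1, and pairs with 100 or more cells were used. UMIs were summed per pair and scaled to CPM by the pair's gene UMIs. Intervals are exact Poisson for levels, exact conditional for ratios and Clopper-Pearson for shares. For spans a lowest count under 3 was set to 3. The pairs held 5.39218e+06 to 1.61848e+07 gene UMIs. Shares, Fano factors and correlations within pairs used cells thinned to 10000 UMIs. No doublet caller was run. Droplets with cells of several pairs are meant to fail the pair rule, and doublets within a pair cannot be seen.

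Python 3.11.15, numpy 2.4.6, scipy 1.17.1 and pandas 2.3.3 were used. The scripts for these steps were tested on simulated data. The named genes are the 9 genes, the 2 most alike genes for each, and genes from the lists. The 9 genes and the lists were chosen with earlier results of these data known, and some list genes were named after their values were seen. The list counts include 1 gene whose own values are not reported here. Dose, time and freezing were not compared, since hashtags could not be tied to conditions. The alternatives covered the cell filter, the pair rule, the scaling, thinning and the removal of cells with most antiviral UMIs.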

Additional observations from a re-analysis of the deposited data

Results flagged for a closer look

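Barcodes outside the pair comparison also carried transcripts of the 9 genes, at more than the level 3 UMIs would give (1.79 and 0.0630 CPM). Summed, the 9 genes stood at 2849 CPM of non-mitochondrial UMIs (2769 to 2931) in the 603 barcodes that failed the cell filter and at 2465 CPM (2451 to 2480) in the 1087 cells without a hashtag pair, against 2496 CPM in the 6114 cells with a pair. IFI44L had 45.4 CPM in the barcodes that failed the filter, against 21.8 CPM in cells with a pair. Of the 603 failing barcodes, 576 were over the mitochondrial limit and 361 were under the gene minimum. Failing barcodes had a median depth of 5200 UMIs and cells without a pair one of 51617 UMIs, against 30005.5 UMIs in cells with a pair. The part of depth, of the mitochondrial share and of cells caught together was not tested.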

How the results depend on the processing

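No paired analysis was possible because the pool is 1 sample and no result comes from a test with replicates. Under all 6 alternatives run for it, the count of the 9 genes spanning 4-fold was 4, and these were IFI6, IFI35, IFI44L and IFITM1 each time. The number of all genes with at least 2000 UMIs spanning 4-fold was 121 (3.01% of those tested) with the stricter cell filter and 137 (3.44%) with cells thinned to 10000 UMIs, against 261 (3.45%). Both settings leave fewer UMIs and so fewer genes tested. Of 54 recomputed spans of the 9 genes, 45 lay inside the 95% interval given for the gene. For levels in the highest pair it was 34 of 54, and for detection shares 6 of 18. Scaling without mitochondrial UMIs moved all 9 levels, and the stricter filter moved 7 of 9. With that filter IFI27 stood at 958, IFITM3 at 997, BST2 at 350 and IFI44L at 54.4 CPM. No gene then had its highest level in pair 7+8. IFI44L spanned 53.5-fold after thinning, where its lowest pair held 3 UMIs, and 25.1-fold to 39.5-fold under the other settings. IFITM1 spanned at least 30.2-fold with the stricter filter (at least 1000 genes, at most 10% mitochondrial UMIs), where the lowest pair had 2 UMIs and the smallest pair 35 cells. Without the 5% of cells with most antiviral UMIs, IFI44 spanned 3.85-fold, IFI6 7.89-fold and IFI27 3.85-fold. After thinning, IFI6 spanned 7.91-fold, IFI27 3.82-fold and IFITM2 1.99-fold, and IFITM3 spanned 3.36-fold with the stricter filter. Thinning to 5000 UMIs left 27 of 36 within-pair correlations and 4 of 9 Fano factors within 1 SD over pairs, and the IFI27 factor was then 2.63.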

Other observations

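RSAD2, an antiviral radical SAM enzyme of the antiviral list, did not follow the order of the 9 genes over pairs. Only 14.4% of cells had a UMI of RSAD2, with 41 UMIs in pair 1+5 and 344 in pair 6+8, so few cells can set its order. It was highest in pair 1+6 at 28.4 CPM, with 25.0 CPM in pair 7+8 and 5.25 CPM in pair 1+5, and its rho with the 9 genes over the 18 pairs lay between 0.412 (IFITM1) and 0.540 (IFI44L). USP18, a protease that removes ISG15 and restrains type I interferon signalling, spanned 9.02-fold, with 19.5 CPM in pair 6+8 against 2.16 CPM in pair 2+4. Transcripts of interferons themselves were sparse in the 7201 cells, with 0 UMIs of IFNG, 1 of IFNB1, 25 of IFNL1, 10 of IFNL2 and 22 of IFNL3.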
